A study of Mus musculus with 8 samples.

Results

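The alpha-defensin genes were taken as all genes of the count tables whose mouse symbol starts with Defa, with pseudogenes left out, and 22 of the 45706 genes in the tables met this rule. No gene carried a Defa-rs symbol, and 17 Defa pseudogenes were left out. The libraries were made from fresh crypts, released with EDTA, of wild-type C57BL/6N mice, and hold RNA of either small intestinal (SI) or colonic (COL) crypts. Each tissue was represented by 4 libraries, and each donor mouse gave 1 library of each tissue. Replicates 1 and 4 were female and replicates 2 and 3 male, and the labels give no age and no treatment. The paper's methods describe crypts of the proximal small intestine after the villi were scraped off. Total counts ranged from 15969428 to 32908060 per library.

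Alpha-defensins, called cryptdins in mice, are small cationic peptides that kill bacteria by disrupting their membranes. In the mouse intestine they are made by Paneth cells, secretory cells at the base of small intestinal crypts, which the healthy colon is known to lack. They are made as precursors, stored in granules and cut to the active peptide by the protease Mmp7, and pairs of cysteines joined by disulfide bonds hold their fold. The mouse genes form a cluster of recent duplicates, so that reads of one gene can match several others.

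All 22 members lie on chromosome 8 of GRCm38 between 21025545 and 21735471, within 709.9 kb, with 21 on the plus strand and only Defa29 on the minus strand. Each has 2 coding exons. The coding sequence held 6 cysteine codons in most members, 7 in Defa25 and Defa28, and 11 in Defa29. Over the 231 pairs of members, coding identity ranged from 61.6% to 100%, with a median of 83.3%. The pairs Defa3 and Defa17, Defa23 and Defa31, Defa2 and Defa33, Defa20 and Defa32, and Defa36 and Defa37 had identical coding sequences.

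Within the coding sequence, which of 2 close members a read is assigned to can therefore turn on a few bases. The end of the coding sequence, where the mature peptide is encoded, shows how few. The first pair below is that of the members with most counts, and the second is the pair whose share varied most among the members with at least 2% of the family's counts. Each line gives the last 120 bases of the GENCODE coding sequence, stop codon included, with capitals at the bases that differ from the other sequence of the pair.
Defa24: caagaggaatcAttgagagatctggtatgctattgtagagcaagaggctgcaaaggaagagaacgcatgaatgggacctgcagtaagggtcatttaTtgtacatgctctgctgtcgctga
Defa30: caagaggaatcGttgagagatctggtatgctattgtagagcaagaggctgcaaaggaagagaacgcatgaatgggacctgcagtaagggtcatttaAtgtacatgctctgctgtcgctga
Defa21: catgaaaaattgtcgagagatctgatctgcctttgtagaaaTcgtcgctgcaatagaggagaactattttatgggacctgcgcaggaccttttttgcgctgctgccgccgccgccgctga
Defa22: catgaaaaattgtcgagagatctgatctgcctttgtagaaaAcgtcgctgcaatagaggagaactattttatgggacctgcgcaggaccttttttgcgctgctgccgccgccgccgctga

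Counted from 1 at the first base of the start codon, Defa24 and Defa30 differed over the whole coding sequence by T72C, G154T, A174G and T259A, with the base of Defa24 first. Defa21 and Defa22 differed by T114G and T204A, with the base of Defa21 first. Between these pairs the distance was larger. Defa24 and Defa21 differed at 60 of 282 coding bases compared position by position, and at 55 in the gapped alignment used for the identities. The last 120 bases of Defa17, which Defa3 shares without any difference, are shown for comparison with Defa24 and Defa30.
Defa17: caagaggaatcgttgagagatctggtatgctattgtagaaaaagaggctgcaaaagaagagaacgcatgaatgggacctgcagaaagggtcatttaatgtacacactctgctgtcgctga

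How much of each transcript is its own was measured as the share of its 50-base stretches that occurred in no transcript of another gene, on either strand. This share was 71.9% for Defa24, 59.8% for Defa26, 56.6% for Defa29 and 47.6% for Defa30. It was 27.1% for Defa21, 25.1% for Defa22, 8.05% for Defa17 and 7.76% for Defa3. Defa5 had a single such stretch of 327. For 6 members (Defa2, Defa20, Defa31, Defa32, Defa33 and Defa37) no 50-base stretch was their own. The members fell into small clusters of near copies. Defa22 held 72.9% of the stretches of Defa21, Defa3 held 92.0% of those of Defa17, and Defa34 held 78.6% of those of Defa5. Whether the authors' counting kept reads that match several genes is not given in the sources used here, so the split of counts within such a cluster is uncertain. If such reads were left out, members with little sequence of their own were counted too low beside those with more, such as Defa24.

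**Figure D1:**
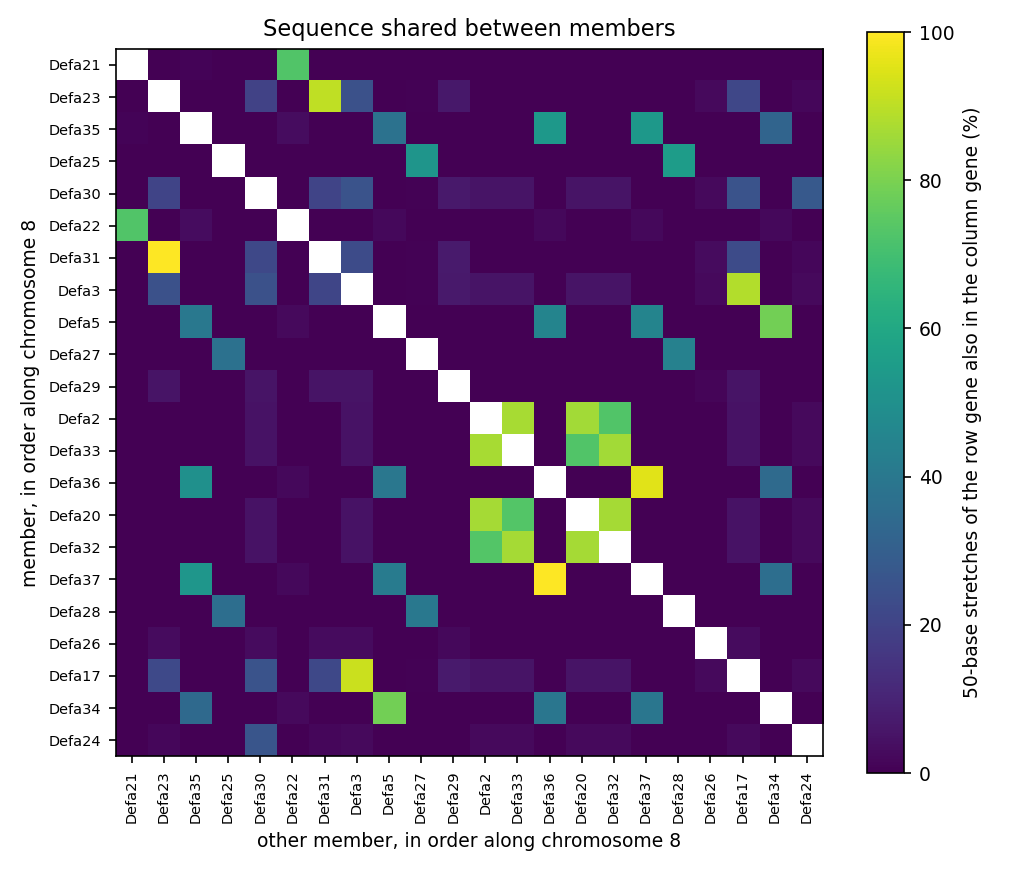
Share of the 50-base stretches of each member's longest transcript (rows) that also occur in another member (columns), in percent, with members in order along chromosome 8 and the diagonal left white. The bright squares are near copies, such as Defa2, Defa33, Defa20 and Defa32, while Defa24 shared at most 26.5% of its stretches with one other member, Defa30.

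In SI crypts, 18 of the 22 members had at least 1 count in some library and 14 had counts in all 4. Defa23, Defa33, Defa36 and Defa37 had no count in any SI or COL library, and at most 5.25% of the stretches of each were its own. The limit that 3 counts set was 0.136 to 0.181 CPM in the SI libraries. With so little sequence of its own, a count of 0 does not show that a gene is silent. Defa23 shares its coding sequence with Defa31, which had 2 counts in SI2 and 1 in COL4. Defa33 shares its coding sequence with Defa2, which had 207 counts over the SI libraries.

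**Figure D2:**
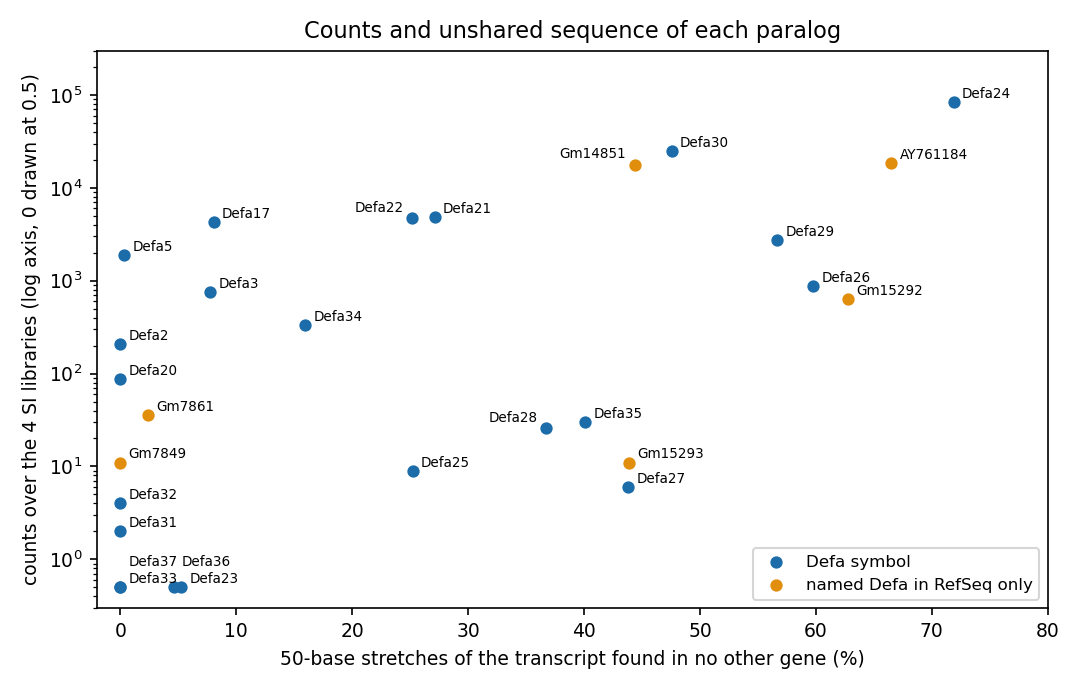
Counts summed over the 4 SI libraries (vertical log axis) against the percent of 50-base stretches found in no other gene (horizontal axis), 1 point per gene, for the 22 members (blue) and 6 genes named Defa in RefSeq only (orange). Defa24 stood highest on both axes, the 4 members without counts lie at or below 5.25%, and Defa25, Defa27, Defa28 and Defa35 had few counts with 25.2% to 43.8% of their stretches their own.

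The family took 6068 counts in SI1, 51517 in SI2, 40494 in SI3 and 31305 in SI4. As a share of all counts of the library, these were 0.0200% in SI1 (95% exact Clopper-Pearson interval 0.0195% to 0.0205%), 0.244% in SI2 (0.241% to 0.246%), 0.164% in SI3 (0.162% to 0.165%) and 0.114% in SI4 (0.113% to 0.115%). Such intervals cover counting error only. The mean was 0.135% ± 0.0936 (SD, n = 4), so the spread between mice was far wider than the counting error of any library. In CPM, the counts scaled to a common library size with TMM, a normalization between libraries, the family reached 274.9 in SI1, 3113 in SI2, 2053 in SI3 and 1433 in SI4. SI1 stood apart as the lowest, and SI2 was 11.3 times as high.

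Other genes of the crypt base also varied between the SI libraries, by unlike amounts. Lyz1, the lysozyme of Paneth cell granules, was at 61.3 CPM in SI1, 700 in SI2, 401 in SI3 and 442 in SI4. Itln1, another Paneth cell product, rose less, from 302 CPM in SI1 to 1013 in SI2, 687 in SI3 and 338 in SI4. SI1 was also the lowest SI library for 8 of 8 Paneth cell products outside the family and for 5 of 5 stem cell genes. It was the lowest for 8 of 16 factors of Paneth cell fate and secretion, and for 32.6% of the 14491 genes tested. Olfm4, a stem cell marker of the small intestine, was at 9.74 CPM in SI1 and at 161, 254 and 180 in SI2, SI3 and SI4. SI1 was the highest SI library for 5 of 8 genes of absorptive enterocytes and for 5 of 7 goblet cell genes, against 27.9% of all genes tested. In bulk crypts, fewer Paneth cells and less alpha-defensin RNA per cell cannot be told apart.

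Defa24 carried most of the counts. Its counts were 4029, 34124, 27029 and 18615 in SI1 to SI4, and 22, 116, 7 and 260 in COL1 to COL4. It held 64.8% of the family's summed SI counts, and in single SI libraries its share was 66.4%, 66.2%, 66.7% and 59.5%. In CPM, Defa24 (chr8:21734494-21735471) reached 1117 ± 796 (SD, n = 4) in SI and 3.37 ± 3.49 (n = 4) in COL. Every SI library lay above every COL library.

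Defa30 (chr8:21134642-21135598) came next, with 891, 10947, 9035 and 3927 counts in SI1 to SI4 and 5, 41, 5 and 26 in COL1 to COL4. Together Defa24 and Defa30 held 83.9% of the family's SI counts. The ratio of Defa24 to Defa30 counts was 4.52 in SI1 (95% exact interval 4.20 to 4.87), 3.12 in SI2 (3.05 to 3.19), 2.99 in SI3 (2.92 to 3.06) and 4.74 in SI4 (4.58 to 4.91). The ratio was thus lower in both male mice than in both female mice by more than counting error, which does not measure the spread between mice. Sex and the mitochondrial share of counts split the SI libraries in the same way and cannot be told apart here.

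Defa21 (chr8:21025545-21026516) had 267, 1334, 708 and 2507 counts in SI1 to SI4, and in COL it had none in COL1, COL2 and COL3 and 21 in COL4. Its near copy Defa22 (chr8:21162277-21163249) had 328, 902, 583 and 2870 counts in SI1 to SI4 and 2, 0, 0 and 13 in COL1 to COL4. Both members were highest in SI4, whereas Defa24 and Defa30 were highest in SI2.

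Defa17 (chr8:21655780-21656735) had 191, 1670, 1350 and 1112 counts in SI1 to SI4 and 2, 5, 0 and 22 in COL1 to COL4. It shares its coding sequence with Defa3, which had 24 to 308 counts in the SI libraries. Defa29 (chr8:21325887-21327020), with 11 cysteine codons, had 115, 969, 685 and 973 counts in SI1 to SI4 and 0, 0, 2 and 22 in COL1 to COL4. These 6 members, each with at least 2% of the family's SI counts, held 96.7% of them.

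**Figure D3:**
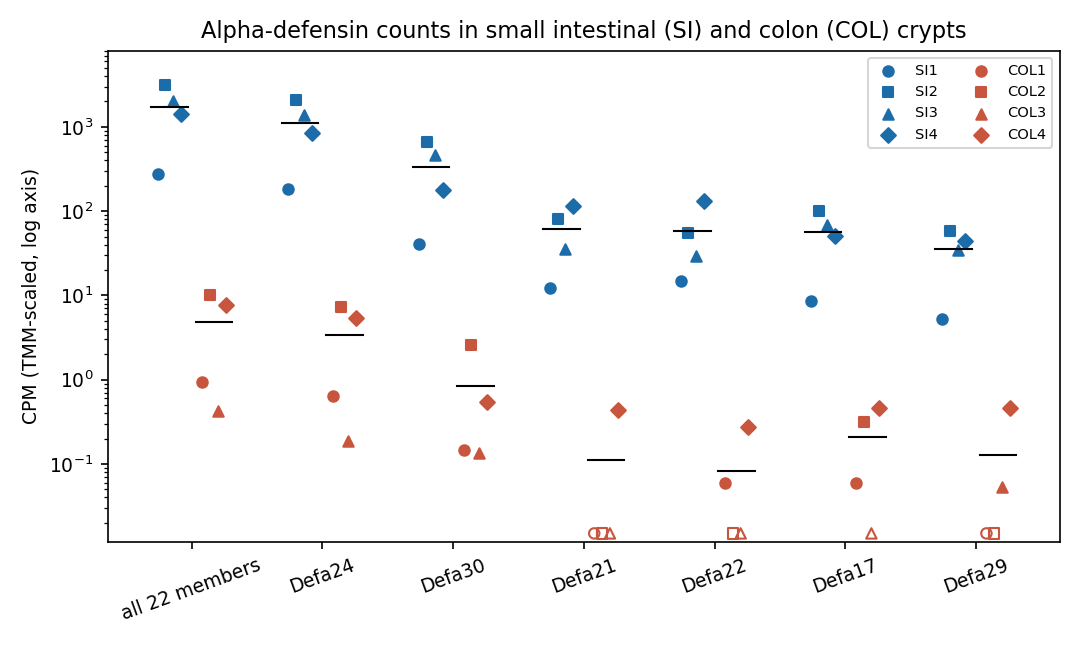
CPM of all 22 members summed and of the 6 members with at least 2% of the family's SI counts (log axis), 1 symbol per library, SI in blue and COL in red, with a bar at the mean of each tissue and open symbols at the bottom for libraries with 0 counts. In each column all 4 SI libraries lie above all 4 COL libraries, and SI1 is the lowest SI library.

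The other 16 members were smaller. Defa5 had 96 to 702 counts per SI library, Defa26 had 52 to 333, Defa34 had 38 to 133, Defa2 had 21 to 120 and Defa20 had 2 to 60. Defa35 had 1 to 16 counts and Defa28 had 3 to 10. Defa25 (9 counts, all in SI2), Defa27 (6 counts over the SI libraries), Defa32 (4 counts) and Defa31 (2 counts) were close to the limit of detection.

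Per kb of exon Defa24 and Defa30 again led, with Defa24 at 2665 ± 1899 CPM per kb (SD, n = 4), Defa30 at 841 ± 699.6, Defa21 at 146 ± 110, Defa17 at 144 ± 96.8 and Defa22 at 137 ± 124. The levels of Defa21, Defa17 and Defa22 lay within each other's spread. Defa24 made up 64.0% ± 3.31 (SD, n = 4) of the summed level of the members. If instead only stretches of 50 bases found in no other gene are taken as the length, Defa24 made up 11.7% and Defa5 71.6%, the latter on the single stretch that is its own. With stretches of 75 bases, the shares were 30.5% for Defa24 and 28.5% for Defa5, and with 100 bases they were 34.6% and 7.66%. Defa24 stood above Defa30 under all 4 lengths. Defa30 was second only per kb of exon, and under the 3 unshared lengths Defa17 stood above it (5.65% against 5.20% at 50 bases, 17.9% against 10.6% at 75 and 20.1% against 10.5% at 100). At 100 bases Defa20 also stood above Defa30, with 15.3% on the single stretch that is its own. The ranks below Defa24 thus changed with the length used.

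The make-up of the family counts differed between the SI libraries. Defa21 and Defa22 together held 9.81% of the family counts in SI1 (95% exact interval 9.07% to 10.6%), 4.34% in SI2 (4.17% to 4.52%), 3.19% in SI3 (3.02% to 3.36%) and 17.2% in SI4 (16.8% to 17.6%). The highest of these shares was 5.39 times the lowest. Relative to Defa24, the counts of Defa21 and Defa22 were 0.148 in SI1, 0.0655 in SI2, 0.0478 in SI3 and 0.289 in SI4. This ratio takes a summed pair of near copies, so it does not depend on how reads were split between Defa21 and Defa22.

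The group of Defa2, Defa20, Defa32 and Defa33 followed the same order, with 0.544% of the family counts in SI1, 0.109% in SI2, 0.0716% in SI3 and 0.578% in SI4. In contrast, the sum of Defa3 and Defa17 was steady, at 3.54%, 3.84%, 3.86% and 4.22%. SI1 and SI4 came from female mice and SI2 and SI3 from male mice. The mitochondrial share of counts was also split in this way, with 4.84% and 7.35% in SI1 and SI4 against 28.3% and 22.7% in SI2 and SI3. With 2 mice on each side, sex and mitochondrial share cannot be told apart, and no test was run.

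**Figure D4:**
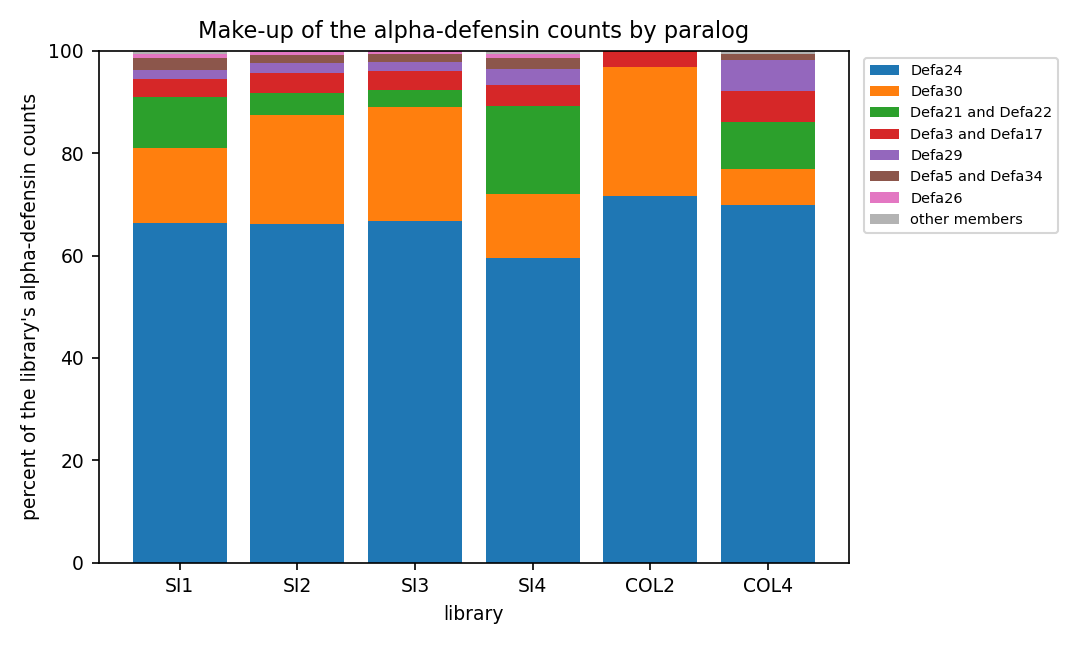
Percent of each library's alpha-defensin counts (vertical axis) taken by paralogs, with near copies summed, for the 4 SI libraries and for COL2 and COL4, the COL libraries with over 100 such counts. Defa24 took 59.5% to 66.7% in SI, and the green part, Defa21 and Defa22, ran from 3.19% in SI3 to 17.2% in SI4 and was at 0 in COL2 and 9.14% in COL4.

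The colon crypts held a trace of the family. Its counts were 32 in COL1, 162 in COL2, 16 in COL3 and 372 in COL4, or 0.939, 10.1, 0.428 and 7.79 CPM. COL2 and COL4 were well above COL1 and COL3. Only Defa24 and Defa30 had counts in all 4 COL libraries, and 12 members had counts in at least 1. The largest COL sums were 405 counts for Defa24, 77 for Defa30 and 29 for Defa17. Over the 4 COL libraries, Defa24 held 63.5% ± 13.2 (SD, n = 4) of the family counts, beside 64.7% ± 3.51 in SI, so the shares did not differ beyond their spread.

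As a share of the SI level of the same mouse, the COL level of the family was 0.342% in replicate 1, 0.323% in replicate 2, 0.0208% in replicate 3 and 0.544% in replicate 4. The ratio of the tissue means was 0.280%, and it was 0.178% without COL2. For Lyz1 these shares were 0.861%, 0.169%, 0.160% and 0.697% in the same order. Both were under 1% in each mouse, but Lyz1 stood above the family in replicates 1, 3 and 4 and below it in replicate 2.

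The paralogs in the trace differed between COL libraries too. Defa21 and Defa22 had 34 of the 372 alpha-defensin counts of COL4, or 9.14% (95% exact interval 6.41% to 12.5%). They had 0 of 162 counts in COL2, for which the same interval reaches up to 2.25%. In the SI libraries of the same 2 mice their share was 17.2% in SI4 and 4.34% in SI2.

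Transcripts of absorptive enterocytes that were far higher in SI also differed between the COL libraries. Apoa1, an apolipoprotein made by small intestinal enterocytes, was at 3.55, 32.0, 1.31 and 63.6 CPM in COL1 to COL4, and Anpep, a brush border peptidase, at 2.64, 27.5, 4.76 and 39.9. Both were higher in COL2 and COL4 than in COL1 and COL3, as the sum of the family was. Of the 18 members with a count, 3 showed this order, Defa24, Defa30 and Defa17. No other member had a count in COL2, which the order needs, so the others could not show it. The order was shown by 5 of the 8 listed enterocyte genes and by 8.70% of all genes tested. The other 3 enterocyte genes, Sis, Alpi and Fabp2, were highest in COL3, with Alpi at 3.64, 3.73, 9.12 and 5.74 CPM in COL1 to COL4. Apoa1 in COL was 0.00549%, 0.134%, 0.00687% and 0.157% of its SI level in the same mouse. The Lyz1 level was 0.528, 1.18, 0.642 and 3.08 CPM. The part of small intestinal RNA or cells in the colon trace was not tested.

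**Figure D5:**
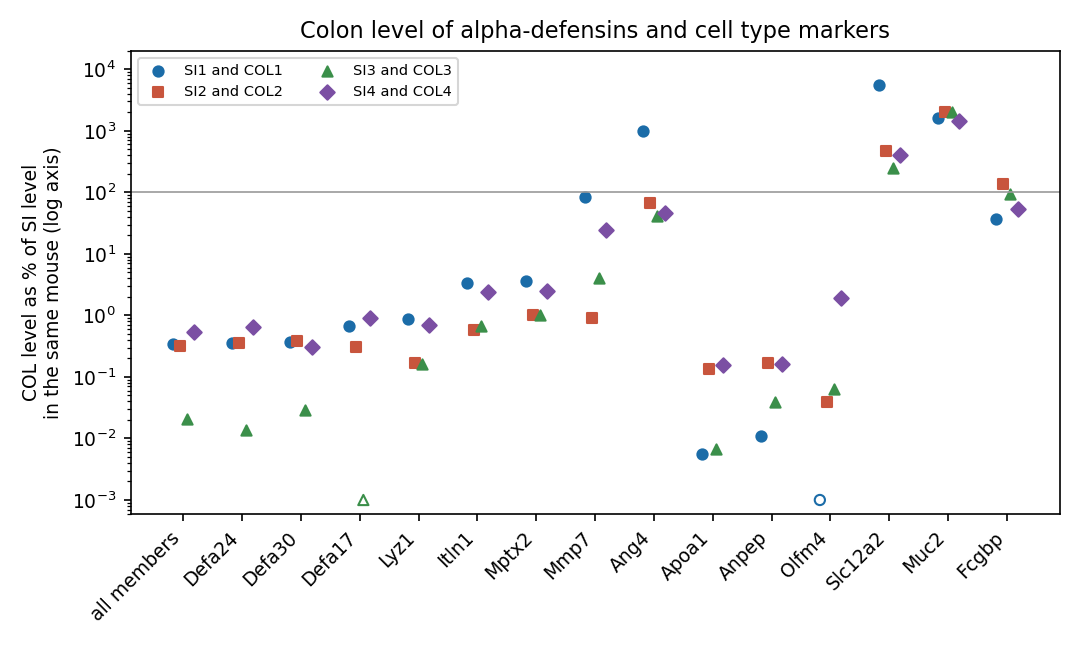
COL level as a percent of the SI level in the same mouse (log axis, gray line at 100%) for the family, 3 of its members and marker genes of Paneth cells (Lyz1 to Ang4), enterocytes (Apoa1, Anpep), stem cells (Olfm4, Slc12a2) and goblet cells (Muc2, Fcgbp), 1 symbol per mouse and an open symbol for 0 counts in COL. The family lay between 0.0208% and 0.544% and Lyz1 between 0.160% and 0.861%, while Ang4 ranged from 40.6% to 993% and Muc2 was at 1468% or more in all 4 mice.

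The comparison of SI with COL asked which genes differ between crypts of the small intestine and the colon. A minimum of counts kept 11 of the 22 members, and all 11 were higher in SI by edgeR (quasi-likelihood test, Benjamini-Hochberg adjusted p below 0.05). Over all genes, 15.5% of 14491 were higher in SI at this threshold and 12.9% higher in COL. A fit that pairs the 2 libraries of each mouse again called 11, beside 15.3% of all genes. A member absent from the colon could pass the minimum only through its SI counts, so this number is a description of those members. The log2 fold changes of SI over COL ran from 7.71 for Defa2 to 11.26 for Defa26, with adjusted p-values by edgeR from 5.9e-05 to 0.00060. Their median was 8.77, beside a median of -0.09 over all genes tested.

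For the 6 members with most counts, the log2 fold change was 8.39 ± 1.29 (SE) for Defa24, 8.77 ± 1.25 for Defa30, 8.74 ± 1.17 for Defa21, 9.08 ± 1.03 for Defa22, 8.08 ± 1.02 for Defa17 and 7.80 ± 1.08 for Defa29. Between any 2 of the 6, the difference was smaller than the sum of their standard errors. The edgeR adjusted p-value was highest for Defa24, at 0.00060. Single COL libraries weighed on these values. Without COL2 the log2 fold change became 9.04 for Defa24 and 10.16 for Defa30. Without COL4 it became 11.02 for Defa22, 9.25 for Defa17 and 10.34 for Defa29, and Defa21 was then left without any COL count. Without SI4 it became 8.26 for Defa22.

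Where COL counts were 0 or nearly so, the fold was bounded by counting. Defa26 (869 SI counts, none in COL) was at least 489-fold higher in SI and Defa34 (331 SI counts, none in COL) at least 186-fold higher, taking 3 counts over the 4 COL libraries as the floor. Defa3 had 1 COL count, which gave a ratio of 1274 with a 95% exact counting interval of 228 to 50384. Defa2 also had 1 COL count, with a ratio of 349 (62.0 to 13862). Defa5 had 5 COL counts, all in COL4, and a log2 fold change of 9.30 ± 1.02 (SE).

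Among the 11 members under the minimum, 4 were at 0 throughout and 7 had counts. Every SI library lay above every COL library for Defa20, Defa28 and Defa35, each with p = 0.029 in a two-sided exact permutation test over the 8 libraries, unadjusted and the smallest p that 4 against 4 allows. Over the genes tested by edgeR, a set that leaves out these members, 17.8% showed such separation. The share among genes under the minimum was not computed. Defa35 was at least 16.9-fold higher in SI. The ratio was 148 for Defa20 (26.0 to 5931) and 21.9 for Defa28 (5.49 to 191). The exact permutation p-value was 0.14 for Defa27 and Defa32 and 1 for Defa25 and Defa31.

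The scaling between libraries bears on these folds. With library size alone in place of TMM, the median over all genes moved on the log2 scale from -0.09 to -0.82, and the split of calls from 2253 higher in SI and 1863 higher in COL to 1115 and 4788. All 11 members stayed higher in SI, with Defa24 at 7.75 on the log2 scale. The mitochondrial share of counts ranged from 4.83% to 50.8% between libraries.

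Genes at the same locus that are alpha-defensins by RefSeq but not by the symbol used here added to the sum. RefSeq names 6 of them, Gm14851 (Defa38), AY761184 (Defa39), Gm15292 (Defa40), Gm15293 (Defa41), Gm7849 (Defa42) and Gm7861 (Defa43). AY761184 had 675, 6951, 6102 and 4595 counts in SI1 to SI4, and Gm14851 had 605, 7309, 6166 and 3704. Each therefore had more counts than any member but Defa24 and Defa30. Both carry 11 cysteine codons, as Defa29 does, a feature of the cryptdin-related sequence peptides. With all 28 genes, the family held 0.174% ± 0.121 (SD, n = 4) of the SI counts. The shares of single members given above, such as 64.8% for Defa24, leave these 6 genes out and are lower with them. In COL, Gm14851 had 0, 14, 3 and 35 counts and AY761184 had 0, 13, 3 and 72. By edgeR their log2 fold changes were 9.21 ± 1.24 (SE, adjusted p = 0.00024) and 8.64 ± 1.28 (adjusted p = 0.00047).

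The other products of Paneth cells did not all differ as the family did. Of 8 listed genes, 5 were higher in SI by edgeR. The log2 fold change was 8.18 ± 0.93 (SE) for Lyz1, 6.35 ± 0.56 for Itln1, a lectin that binds microbial sugars, and 6.32 ± 0.84 for Mptx2, a pentraxin of Paneth cells. It was 4.66 ± 1.12 for Habp2, a serine protease, and 3.43 ± 0.79 for Mmp7, the protease that activates alpha-defensins. The log2 fold change was -0.22 ± 0.65 for Ang4, an antimicrobial ribonuclease, and -0.21 ± 0.43 for Clps, the pancreatic lipase cofactor colipase, and neither passed the threshold (edgeR adjusted p = 0.84 and 0.75). Pla2g2f, a secreted phospholipase, was higher in COL, at -3.05 ± 0.87 (edgeR adjusted p = 0.021).

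Mmp7 itself was at 3.35, 41.2, 22.3 and 12.8 CPM in SI1 to SI4 and at 2.82, 0.373, 0.909 and 3.10 in COL1 to COL4. In replicate 1 the tissues were close, at 84.0% of the SI level in COL. Ang4 was at 6.93 to 48.2 CPM in SI and at 10.6 to 68.9 in COL, so that the tissues overlapped.

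Of 16 listed factors of Paneth cell fate and secretion, none was higher in SI, 8 were higher in COL and 8 did not pass the threshold. The best expressed were Tcf7l2, a Wnt pathway transcription factor, with a log2 fold change of -0.18 ± 0.36 (SE), and Xbp1, a factor of the secretory stress response, with -0.02 ± 0.34. The list's median was -1.05. Several of these factors are shared with other secretory and stem cells.

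The promoters of the members carry a further common feature. RefSeq windows of 300 bases (250 before the start and 50 after it, GRCm38.p6) were matched for 12 of the 22 members. These were Defa2, Defa20 to Defa23, Defa28, Defa30 to Defa32 and Defa35 to Defa37. The letters CTTTGAT, a binding sequence of the TCF/LEF factors of the Wnt pathway, occurred on either strand in 12 of 12 windows, against 3.73% of 32851 windows of all genes. Of the 12, 8 held them at least 2 times, always 40 bases apart, against 33 of the 32851 windows of all genes. These 33 include 9 Defa windows, those of the 8 members and of Gm15293. Of the 6 genes named Defa in RefSeq only, 4 had windows, and CTTTGAT occurred in that of Gm15293 and not in those of Gm14851, Gm7849 and Gm7861, which gives 13 of 16 windows over both sets. The letters TATAAA of the TATA box occurred in 11 of 12 windows, against 13.6% of all. The related TCF/LEF letters CTTTGAA and the CDX letters TTTATG occurred in none of the 12 windows, against 5.14% and 11.9% of all. The windows are near copies of each other and therefore not independent.

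The lines below show the stretch before the start, ending shortly past the TATA box, for a member with counts and 2 matches (Defa21, chr8:21025395-21025544, plus strand), a member with counts and 1 match (Defa30, chr8:21134500-21134619, plus strand) and a member without any count and 2 matches (Defa23, chr8:21054890-21055037, plus strand). Capitals mark CTTTGAT, read here from the opposite strand as ATCAAAG, and the TATA box.
Defa21: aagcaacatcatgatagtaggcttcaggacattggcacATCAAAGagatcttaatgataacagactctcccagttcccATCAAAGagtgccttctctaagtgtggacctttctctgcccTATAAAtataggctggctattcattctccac
Defa30: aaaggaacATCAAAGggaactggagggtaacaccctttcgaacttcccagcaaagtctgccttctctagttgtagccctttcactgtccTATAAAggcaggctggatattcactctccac
Defa23: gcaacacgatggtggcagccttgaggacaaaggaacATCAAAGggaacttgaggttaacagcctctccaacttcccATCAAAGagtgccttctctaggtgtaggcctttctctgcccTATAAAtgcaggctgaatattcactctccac

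Defa21, with 4816 counts over the SI libraries, held 2 matches, and Defa30, with 24800, held 1. Defa23, at 0 counts in all libraries, also held 2, but with so little sequence of its own this 0 does not show that the gene is silent. Whether the number of matches goes with the counts was not tested. Defa24, Defa17 and Defa29 had no entry among these windows.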

How the data were processed

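RNA-Seq of freshly isolated SI and COL crypts was analysed from the counts per Ensembl gene that the authors deposited, as whole numbers without normalization, 1 column per library. Per the paper's methods and the submitters' processing notes, paired-end reads were trimmed with Trimmomatic 0.36 and aligned to mm10 with STAR 2.5.2b, which also gave the counts. The gene annotation and whether counting used strand are not given in the sources used here. The labels say that libraries of a tissue came from different mice and pair the tissues by donor mouse.

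Symbols, exons and transcripts come from GENCODE vM21, on the same assembly as mm10 (GRCm38), in which 563 identifiers had no match. RefSeq names were matched by an overlap of at least 50% at the locus. Near copies were joined where they share at least 50% of 50-base stretches, a rule chosen after seeing the data. Protein sequences were not used here.

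SI was compared with COL by edgeR 4.0.16's quasi-likelihood test in R 4.3.3, with TMM and filterByExpr by tissue (about 10 counts in at least 4 libraries and 15 in all), and Benjamini-Hochberg adjustment over all genes tested. Each SE beside an edgeR log2 fold change was worked back from the F value of the test. It used a log2 fold change fitted without edgeR's small added count, while the fold change printed includes that count. The test was tried on simulated data first. CPM values use as denominator the summed counts of the kept genes, scaled by TMM. Members under the filter were compared by exact permutation tests on log2(CPM + 0.1). The paper's methods name limma, and limma 3.58.1 (voom), DESeq2 1.42.0, library size alone, other filters, the donor block and leaving out each library were alternatives. Same-mouse libraries had deviations from their tissue means that correlated at -0.24, 0.39, -0.08 and 0.33 (replicates 1 to 4, across genes). No 2 libraries agreed within sampling noise.

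Values in all libraries are given for members with at least 2% of the family's summed SI counts. The 3 members with the largest COL sums, each Paneth cell product of the list and the 2 best expressed genes of each other list are named. The members and gene lists were chosen with earlier results of these data known.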

Additional observations from a re-analysis of the deposited data

Results flagged for a closer look

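Within the 4 libraries of a tissue, 1 library stood far from the other 3 for 6 of 40 sets of values examined (family sums, members and Paneth cell genes). Chance gives about 1 in 20 where values vary continuously, but 4 of the 6 sets (Defa21, Defa5, Defa3 and Defa2) held 3 libraries at 0, for which any count stands apart by construction. All 6 were in COL, at levels of few counts. COL4 was apart for Defa21 at 0.440 CPM (21 counts), Defa29 at 0.461 CPM (22 counts), Defa5 at 0.105 CPM (5 counts) and Defa3 at 0.0209 CPM (1 count). COL2 was apart for Defa30 at 2.55 CPM (41 counts), and COL1 for Defa2 at 0.0293 CPM (1 count).

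Among the 17 pseudogenes left out of the family, 4 had more counts in every SI library than in any COL library. By CPM, 17.8% of the genes tested by edgeR had every SI library above every COL library, so this number does not set the pseudogenes apart. Defa-ps6 had 327 counts over the SI libraries, Defa-ps7 had 106, Defa-ps1 had 54 and Defa-ps5 had 36. All 17 pseudogenes together had 574 counts in SI.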

How the results depend on the processing

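The number of members higher in SI was 11, and 11 to 13 under each alternative that could be computed (library size alone, DESeq2, limma-voom, no filter, the donor block, and leaving out each library, with 11 to 12). Requiring 10 counts in each of the 8 libraries left no member to test. The fit with the replicate block, which pairs the libraries of a mouse, called 11 members and 4072 genes beside 4116 without it, and it changed the call of none of the 6 members with most counts, with Defa24 at 8.72 on the log2 scale. Over all genes, 3167 to 4480 passed without one library. The mean share of Defa24 in the summed level of the members, 64.0% per kb of exon, was 63.4% to 65.7% without one SI library. It moved to 11.7%, 30.5% and 34.6% when the length was that of unshared stretches of 50, 75 and 100 bases, where members with few such stretches (Defa5, Defa17 and, at 100 bases, Defa20) take a large part of the sum. The family's share of SI counts was 0.0991% to 0.174% without one SI library, and the ratio of COL to SI means was 0.178% to 0.383% without one library and 0.432% with library size alone. A check added after seeing the data, library size alone for the exact tests of members under the filter, left 3 of 7 separated, as before. Depth limits what can be said of the colon, where 3 counts stand for 0.0628 to 0.187 CPM, and of the members without sequence of their own.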

Other observations

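Other genes of antimicrobial defence in the crypts divided between the tissues. Of 10 listed genes, antimicrobial proteins and the receptor gene Pigr, 9 were tested. EdgeR called 3 higher in SI and 2 in COL, with a median log2 fold change of 1.06 beside -0.09 over all genes tested. The best expressed were Pigr, the receptor that carries IgA across the epithelium, with 1.13 ± 0.46 (SE, edgeR adjusted p = 0.088), and Reg3b, a lectin active against bacteria, with 4.88 ± 0.63 (edgeR adjusted p = 0.00020). Of 42 beta-defensins, a family of the same fold made by many epithelia, 19 had no count in any library and 2 were tested. Both, Defb37 (-5.99 ± 1.00) and Defb45 (-6.01 ± 1.11), were higher in COL by edgeR (adjusted p = 0.00091 and 0.0012). Their COL means were 4.94 ± 2.83 and 1.13 ± 0.34 CPM (SD, n = 4).

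All 8 genes of absorptive enterocytes were higher in SI by edgeR, with a median log2 fold change of 10.15, among them Apoa1 (10.52) and Anpep (10.02). Of 7 goblet cell genes, 3 were higher in COL and 4 did not pass the threshold. Muc2, the main mucin of the gut, had -4.10 ± 0.64 (SE) and Fcgbp, a mucus protein, 0.66 ± 0.48. All 4 genes of colonic epithelium were higher in COL, among them Car1, a carbonic anhydrase, and Mptx1, a pentraxin. Of 5 stem cell genes, Olfm4 was higher in SI (7.24 ± 1.48) and Slc12a2, an ion transporter of crypts, higher in COL (-2.34 ± 0.60). Of 6 enteroendocrine genes, 1 passed as higher in SI and 2 as higher in COL, while Chgb and Chga did not pass the threshold. Of 10 genes of neutrophils and other leukocytes, 3 were tested. Cd3e, a T cell receptor subunit, was higher in SI (2.05 ± 0.67) and Ptprc, the leukocyte antigen CD45, did not pass the threshold (0.96 ± 0.33, edgeR adjusted p = 0.052).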
